A study of Mus musculus with 13 samples.

Results

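The genes described here run the meiotic cell cycle of the mouse oocyte around cyclin B and Cdk1: Ccnb1, Ccnb2, Ccnb3, Ccna2, Cdk1, Cdc25b, Wee2, Mos, Fbxo43 and Plk1. They were chosen by name, and the Ensembl identifiers of all 10 were found among the 22442 genes of the ribosome profiling (Ribo-seq) count tables. Ribo-seq sequences the mRNA fragments that ribosomes shield from RNase I, so a footprint count on a coding sequence (CDS) reflects both the amount of an mRNA and how many ribosomes it carries. The data held 11 Ribo-seq libraries: 3 from wild-type (WT) oocytes at the germinal vesicle (GV) stage, 3 from Nat10-ZcKO GV oocytes, 2 from WT oocytes at metaphase II (MII) and 3 from Nat10-ZcKO MII oocytes. An acRIP-seq experiment added 1 anti-ac4C and 1 anti-IgG library from WT GV oocytes.

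All mice were on the C57BL/6J background. The study gives the genotype of Nat10-ZcKO females as Nat10 lox/-; Zp3-Cre, bred from floxed Nat10 mice and Zp3-Cre mice. Zp3-Cre is active in the oocyte from the primary follicle on and not in the granulosa cells around it. NAT10 is the enzyme that writes N4-acetylcytidine (ac4C) on RNA. The labels name neither an age nor an animal for a library; the study's methods describe GV oocytes from ovaries of PMSG-primed juvenile females, and MII oocytes from oviducts after PMSG and hCG, freed of cumulus cells with hyaluronidase. Stage therefore went together with hormone treatment and collection site, and their parts cannot be told apart. The design text speaks of tamoxifen injection, whereas the methods describe a Zp3-Cre that needs none. Each library was a pool of oocytes, and nothing says which libraries came from separate animals, so the p-values measure the spread between these libraries only.

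Cyclin B binds Cdk1 to form maturation-promoting factor, the kinase that takes an oocyte out of its long prophase arrest. In the GV oocyte Cdk1 is held inactive by phosphorylation, placed by WEE1B, the product of Wee2, and removed by CDC25B, while the anaphase-promoting complex (APC/C) degrades cyclin B1. After the first division the oocyte stops again at MII, where the MOS kinase acts through the MAP kinases and EMI2, the product of Fbxo43, inhibits the APC/C so that cyclin B is kept. Transcription is silent over this interval. Which proteins are made is set by stored mRNAs, many of which are recruited to ribosomes through a cytoplasmic polyadenylation element (CPE) in the 3′ untranslated region (3′UTR), close to the polyadenylation signal.

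Because that element is the textbook route to stage-dependent translation, the annotated 3′UTRs were searched for it. TTTTAT and TTTTAAT were counted as CPEs and AATAAA and ATTAAA as polyadenylation signals, on the transcript strand alone, and a CPE was scored when it began within 100 nt of the start of a signal. A letter may belong to both kinds of motif. Of 21022 genes with an annotated 3′UTR, 34.2% held such a pair. Among the 10 genes it was found in Ccnb1 (2 elements), Ccnb2 (1), Ccnb3 (1), Ccna2 (3), Cdk1 (1), Wee2 (2) and Fbxo43 (4), and not in Cdc25b, Mos or Plk1. The windows below are those of the genes whose footprints moved most, read 5′ to 3′ from GRCm38 with GENCODE M21 coordinates. Capitals mark the CPE and, where the window reaches it, the polyadenylation signal.
Ccnb1, chr13:100778776-100778805, minus strand: tctcatttgctgTTTTAATttatacatctg
Wee2, chr6:40466780-40466809, plus strand: tcattgtaAATAAAgaTTTTATcttatcca
Fbxo43, chr15:36151056-36151085, minus strand: aatgggaaTTTTATttAATAAActcctata
Cdk1, chr10:69336263-69336292, minus strand: agtgacaaagaaTTTTATgggtggggtggg
Mos, chr4:3870671-3870700, minus strand: ccactagggcatatttttaggaAATAAAgt
Cdc25b, chr2:131198453-131198482, plus strand: cctctgttgggggccttggttcAATAAAgc
In Wee2 the CPE began 8 nt downstream of the nearest signal shown, in Fbxo43 8 nt upstream of it. The Fbxo43 and Cdk1 windows start 1026 and 1147 nt before the annotated 3′UTR end. Those of Ccnb1 and Wee2 start 156 and 34 nt before it. Mos and Cdc25b are shown at their last signal because no element of these letters lay near one. A match is a description of the annotated sequence and not a tested site.

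Library depth was low, 4815 to 279464 footprints on genes, so that a count of 0 allows 10.7 to 623 CPM (counts scaled to the library total), taking 3 counts as the limit. Such limits cover counting error only. Ahead of the results, 3 libraries stood apart. WT MII replicate 2 was the smallest library, with 1 of the 10 genes and 1 of 14 oocyte markers detected, and its zeros say nothing about any of these genes. Nat10-ZcKO GV replicates 1 and 2 held 0.0212% and 1.64% of their counts on oocyte markers, against 5.98% to 11.4% in the other 4 GV libraries, with 4 and 12 of the 14 markers detected. Adipocyte markers made up 1.56% and 0.358% of these 2 libraries, with 16 and 13 of 16 detected, against 0.0224% to 0.0645% in the 8 libraries that did not stand apart. Granulosa and cumulus markers made up 0.175% to 0.888% of the 10 larger libraries. Nat10 itself had 3 to 11 counts in WT and 1 to 5 in Nat10-ZcKO libraries at GV, and 1 to 6 over the 5 MII libraries, too few to check the labels, and counts over the whole CDS do not tell an excised exon from an intact one. The footprint tests are therefore given over the 11 libraries as labelled and over the 8 without those 3, and ranks of TPM over the 8 alone. The 8 hold 3 WT and 1 Nat10-ZcKO library at GV and 1 WT and 3 Nat10-ZcKO libraries at MII.

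Between GV and MII the footprints of these genes turned over. The 10 genes together took 0.0614% to 0.0941% of all footprints in the 6 GV libraries and 0.200% to 0.365% in the 4 larger MII libraries. Mos, Ccnb1, Wee2 and Fbxo43 were higher in MII, and Cdk1 and Cdc25b were lower. Of the 9 genes with enough counts for the test, 4 rose and 2 fell over the 11 libraries (edgeR quasi-likelihood test, Benjamini-Hochberg adjusted p over all genes tested), where 12.6% of all 2991 genes tested rose and 20.9% fell. Over the 8 libraries Ccna2 rose and Plk1 fell as well, which made 5 up and 3 down, where 30.4% of 3094 genes rose and 33.9% fell. Ccnb3 had too few counts to test. Changes below are log2 changes of footprints per library, MII against GV, adjusted for genotype, ± SE. Means, folds of means and ranks over the 8 libraries are not adjusted for genotype. These libraries are mostly WT at GV and mostly Nat10-ZcKO at MII, so such values mix stage with genotype.

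**Figure D1:**
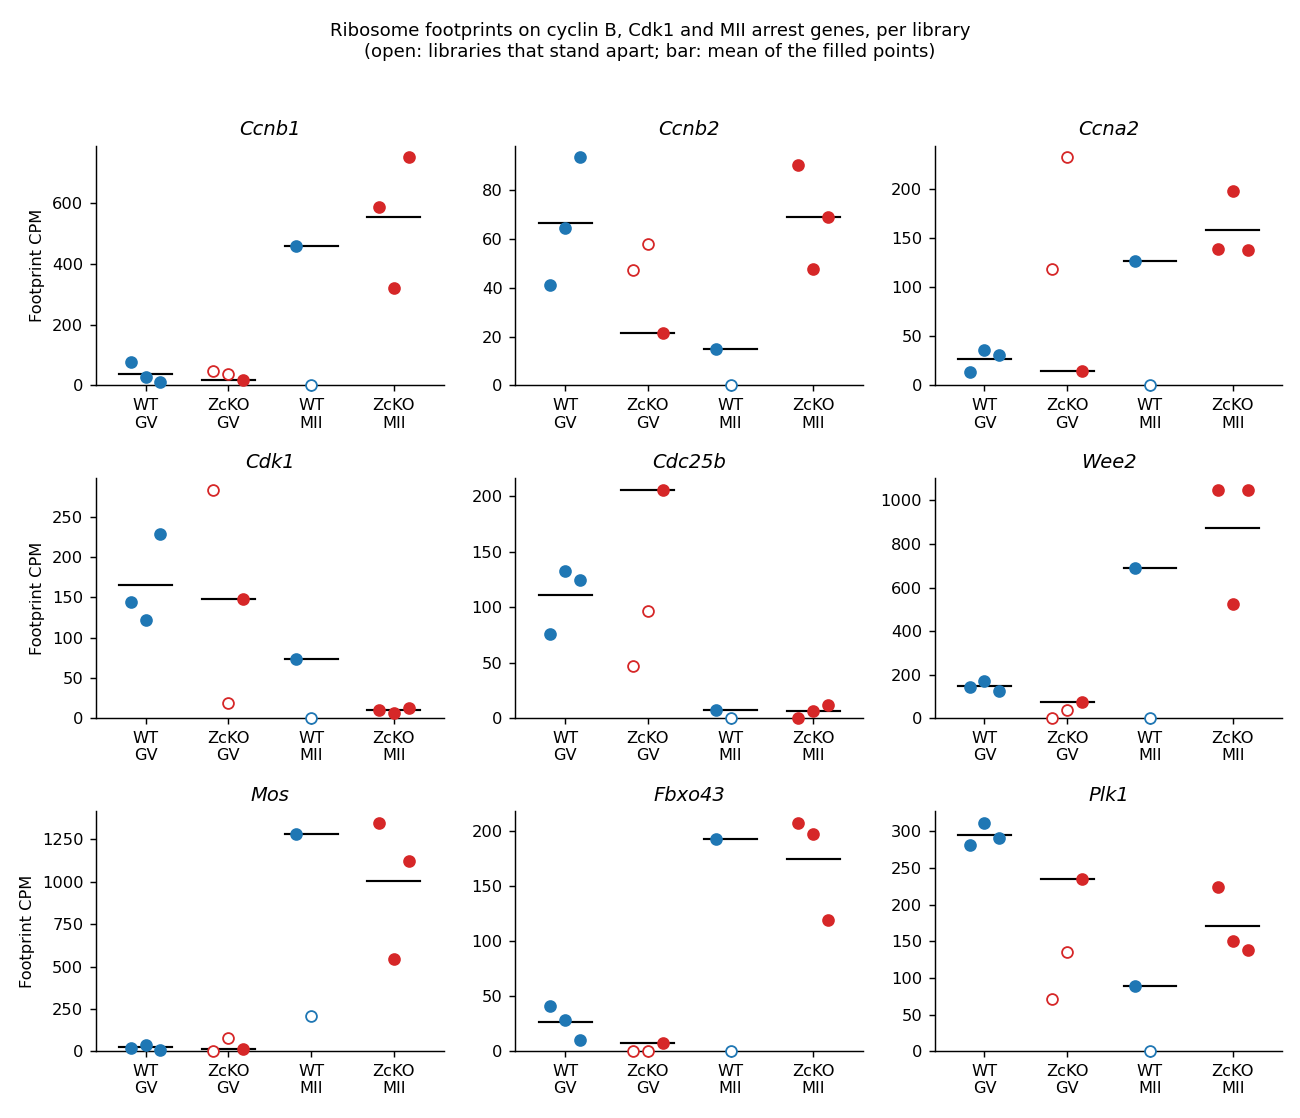
Footprint CPM (vertical axis, linear, own scale per gene) of 9 genes in every library of the 4 groups, WT in blue and Nat10-ZcKO in red. Open points are the 3 libraries that stand apart and the bar is the mean of the filled points; Mos, Ccnb1, Wee2, Fbxo43 and Ccna2 lie higher in the filled MII points, and Cdk1, Cdc25b and Plk1 lie lower.

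Cyclin B1 (Ccnb1, chromosome 13, 100778650 to 100786570, minus strand), the main cyclin partner of Cdk1, had 11, 8 and 1 counts in the WT GV libraries, 2, 2 and 5 in Nat10-ZcKO GV, 62 and 0 in WT MII, against 110, 47 and 120 in Nat10-ZcKO MII. In CPM the 6 GV libraries lay between 10.4 and 75.6 and the 4 larger MII libraries between 320 and 751. No GV library reached the lowest of these. How many of all genes did the same over these libraries was not taken, and over the 8 it was 29.3%. The change was 3.48 ± 0.87 (edgeR adjusted p = 0.00132), and 3.94 ± 0.48 over the 8 libraries (edgeR adjusted p = 3.17e-07), where the mean went from 33.2 ± 29.3 to 529 ± 183 CPM (SD, n = 4 and 4). Without WT MII replicate 1 the adjusted p was 0.0611, and with no filter on low counts 0.0525.

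Cyclin B2 (Ccnb2, chromosome 9, 70407692 to 70421547, minus strand), which can stand in for cyclin B1 at meiotic entry, did not follow it. Its counts were 6, 18 and 9 in WT GV, 2, 3 and 6 in Nat10-ZcKO GV, 2 and 0 in WT MII, against 17, 7 and 11 in Nat10-ZcKO MII. The stages overlapped, at 21.7 to 93.6 CPM in GV and 14.8 to 90.4 in the 4 larger MII libraries. The change of −0.17 ± 0.79 (edgeR adjusted p = 0.873) had no settled sign across the settings tried, and over the 8 libraries it was −0.04 ± 0.75, an SE that leaves room for a change in either direction. Set side by side, Ccnb1 outnumbered Ccnb2 in each larger MII library, 62 to 2, 110 to 17, 47 to 7 and 120 to 11 counts on coding sequences of 1290 and 1194 nt. In GV it did so in WT replicate 1 alone, with 2 counts each in Nat10-ZcKO replicate 1. The CPE count also differed, 2 for Ccnb1 and 1 for Ccnb2.

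Cyclin A2 (Ccna2, chromosome 3, 36564865 to 36572150, minus strand), a cyclin of S phase and mitosis, had 2, 10 and 3 counts in WT GV, 5, 12 and 4 in Nat10-ZcKO GV, 17 and 0 in WT MII, against 26, 29 and 22 in Nat10-ZcKO MII. Its highest GV levels, 118 and 232 CPM, were those of Nat10-ZcKO replicates 1 and 2, which also carried the adipocyte markers; whether other cells contributed them was not tested. The other 4 GV libraries held 13.7 to 35.8 CPM and the 4 larger MII libraries 126 to 198. Over all libraries the change was 1.05 ± 0.67 (edgeR adjusted p = 0.208) and over the 8 it was 2.53 ± 0.52 (edgeR adjusted p = 0.000215). Leaving out Nat10-ZcKO GV replicate 2 alone gave 1.75 (edgeR adjusted p = 0.0319), and leaving out WT MII replicate 2 alone gave 1.48 (edgeR adjusted p = 0.0467).

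Cyclin B3 (Ccnb3, chromosome X, 6979652 to 7041619, minus strand), needed for the metaphase to anaphase step of the first division, had 2 counts in WT GV replicate 2 (7.16 CPM) and 0 in the other 10 libraries. It had 0 counts in both acRIP-seq libraries as well, which allows up to 3.09 CPM in the deeper of them. Footprints on it were thus not detectable at this depth beyond those 2 counts.

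Cdk1 (chromosome 10, 69335146 to 69352938, minus strand), the catalytic subunit, moved against its cyclin. It had 21, 34 and 22 counts in WT GV, 12, 1 and 41 in Nat10-ZcKO GV, 10 and 0 in WT MII, against 2, 1 and 2 in Nat10-ZcKO MII. The 4 GV libraries that did not stand apart lay at 122 to 229 CPM, WT MII replicate 1 at 74.2 and the Nat10-ZcKO MII libraries at 6.82 to 12.5. The change was −2.66 ± 0.74 (edgeR adjusted p = 0.00418), or −2.53 ± 0.53 over the 8 libraries (edgeR adjusted p = 0.000295), where the mean was 6.17-fold lower in MII. With no filter on low counts the adjusted p was 0.0907. By genotype, the mean over these libraries went from 165 to 74.2 CPM in WT and from 148 to 9.99 CPM in Nat10-ZcKO. WT MII and Nat10-ZcKO GV are 1 library each there. Ranked by mean footprints per CDS length (TPM) over the 8 libraries, Cdk1 stood 544th of 22359 genes in GV and 2701st in MII.

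Cdc25b (chromosome 2, 131186949 to 131198497, plus strand), the phosphatase that activates Cdk1 at meiotic resumption, showed the deepest fall of the 10. Its counts were 11, 37 and 12 in WT GV, 2, 5 and 57 in Nat10-ZcKO GV, 1 and 0 in WT MII, against 0, 1 and 2 in Nat10-ZcKO MII. Each GV library, from 47.2 to 206 CPM, lay above each MII library, from 0 to 12.5, as for 10.8% of all genes tested over the 11 libraries. The change was −4.16 ± 0.87 (edgeR adjusted p = 0.000127) and −4.92 ± 0.65 over the 8 libraries (edgeR adjusted p = 8.67e-07), a mean of 135 ± 53.6 CPM against 6.69 ± 5.14 (SD, n = 4 and 4). In rank of TPM it went from 1286th to 7805th.

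Wee2 (chromosome 6, 40439088 to 40466813, plus strand), the oocyte kinase that opposes CDC25B on Cdk1, moved the other way. It had 21, 48 and 12 counts in WT GV, 0, 2 and 21 in Nat10-ZcKO GV, 93 and 0 in WT MII, against 197, 77 and 167 in Nat10-ZcKO MII. The GV libraries spanned 0 to 172 CPM and the 4 larger MII libraries 525 to 1048, without overlap. The share of all genes that lay wholly higher over these libraries was not taken, and over the 8 it was 29.3%. The change was 2.95 ± 0.99 (edgeR adjusted p = 0.0161), and 2.65 ± 0.36 over the 8 libraries (edgeR adjusted p = 1.21e-06), a 6.40-fold rise of the mean. The call over all 11 libraries was not firm: the adjusted p was 0.114 without WT MII replicate 1 and 0.0623 without Nat10-ZcKO GV replicate 3. In the 4 larger MII libraries Wee2 had 93, 197, 77 and 167 counts beside 1, 0, 1 and 2 for Cdc25b. In WT GV the pair had 21 and 11, 48 and 37, and 12 and 12 counts.

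Mos (chromosome 4, 3870657 to 3872105, minus strand), the germ-cell kinase that switches on the MAP kinases, rose most. It had 3, 11 and 1 counts in WT GV, 0, 4 and 4 in Nat10-ZcKO GV, 173 and 1 in WT MII, against 253, 80 and 179 in Nat10-ZcKO MII. Each MII library, from 208 to 1346 CPM, lay above each GV library, from 0 to 77.4, although the 208 CPM of WT MII replicate 2 is 1 count. The same held for 1.44% of all genes tested over the 11 libraries and 29.3% over the 8. WT MII replicate 2 had counts on 523 genes only, which keeps the first share low. The change was 4.95 ± 1.02 (edgeR adjusted p = 0.000101), and 5.59 ± 0.41 over the 8 libraries (edgeR adjusted p = 1.70e-10). The mean went from 21.2 ± 12.8 to 1074 ± 365 CPM over these 8 (SD, n = 4 and 4), 50.6-fold higher. By mean TPM Mos moved from 3625th to 71st of 22359 genes, past Wee2 (1239th to 172nd) and Ccnb1 (3137th to 217th).

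Fbxo43 (chromosome 15, 36150060 to 36164884, minus strand), whose product EMI2 holds the APC/C inactive at MII, had 6, 8 and 1 counts in WT GV, 0, 0 and 2 in Nat10-ZcKO GV, 26 and 0 in WT MII, against 39, 29 and 19 in Nat10-ZcKO MII. In CPM this was 0 to 41.2 in GV and 119 to 207 in the 4 larger MII libraries. The change was 3.19 ± 0.75 (edgeR adjusted p = 0.000829), and 3.19 ± 0.52 over the 8 libraries (edgeR adjusted p = 1.47e-05).

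Plk1 (chromosome 7, 122159439 to 122169873, plus strand), a kinase of spindle assembly that also marks EMI2 for destruction when the egg is activated, varied least among the WT GV libraries, at 282, 311 and 291 CPM (41, 87 and 28 counts). It had 3, 7 and 65 counts in Nat10-ZcKO GV, 12 and 0 in WT MII, against 42, 22 and 22 in Nat10-ZcKO MII. The change of −0.86 ± 0.81 (edgeR adjusted p = 0.403) over all libraries became −1.18 ± 0.35 (edgeR adjusted p = 0.00488) over the 8, where the MII libraries at 89.0 to 223 CPM lay below the GV libraries at 235 to 311.

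**Figure D2:**
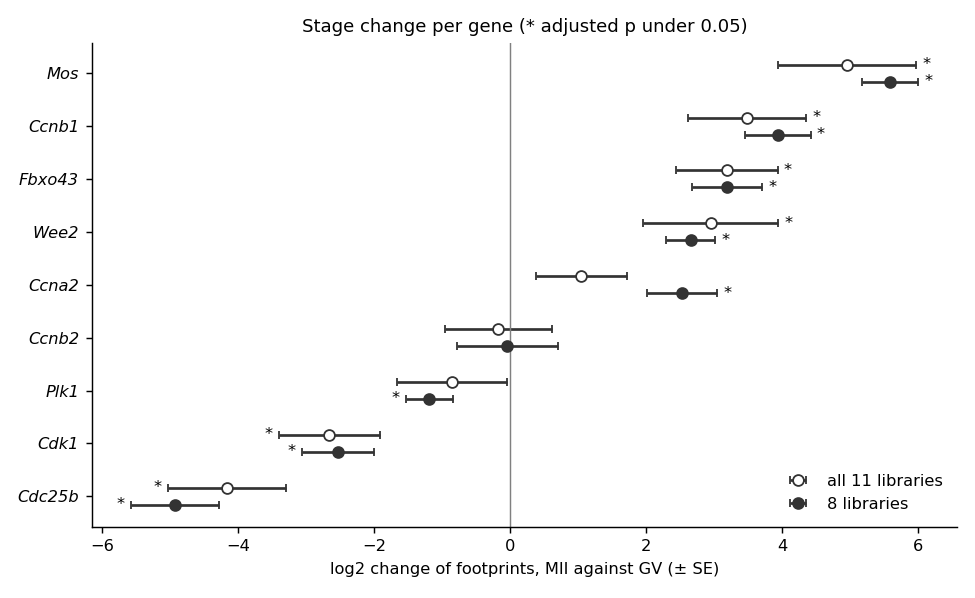
Log2 change of footprints in MII against GV (horizontal axis, ± SE) for 9 genes, over all 11 libraries (open) and over 8 (filled); a star marks an adjusted p under 0.05. Mos, at 4.95 and 5.59, and Cdc25b, at −4.16 and −4.92, lie at the ends, with Ccnb2 at 0 within its SE.

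Over the 8 libraries the GV and MII values of 8 of the 10 genes did not overlap, 5 higher and 3 lower in MII, where 29.3% of all genes tested lay wholly higher and 28.5% wholly lower. Over the 11 they did not overlap for Mos and Cdc25b alone, where 1.44% of all genes tested lay wholly higher and 10.8% wholly lower. The zeros of WT MII replicate 2 keep the first of these shares low. The summed share of the oocyte markers moved with stage too, from 5.98% to 11.4% of the counts in the 4 GV libraries among the 8 to 1.19% to 1.42% in the 4 larger MII libraries. Its members did not all go that way: Oosp1 had 34 to 75 counts in these GV libraries and 299 to 660 in the MII libraries, and Gdf9 289 to 929 and 628 to 831. Some markers of granulosa and cumulus cells also moved with stage, although the summed share of their list overlapped. Ptx3 had 0 to 1 counts in the 6 GV libraries and 62 to 285 in the 4 larger MII libraries, Tnfaip6 0 and 31 to 83, and Ptgs2 0 to 2 and 8 to 40, whereas Amh had 13 to 93 and 0 to 4. Their part in the stage changes above was not tested. The median change of all genes tested was −0.48 over 11 libraries and −0.14 over 8 (0.03 when scaled by library size alone). In such bulk libraries less RNA per oocyte and fewer oocytes cannot be told apart, and footprints are shares of a library.

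Loss of Nat10 was compared next within each stage. In GV, 4 of the 10 genes had enough counts over the 6 libraries and none was called (edgeR, changes of −1.42 to 0.37, lowest adjusted p = 0.900), where 0% of 1765 genes tested were called by edgeR, 85 had an unadjusted p under 0.05 and DESeq2 called 15. Wee2 lay at 144, 172 and 125 CPM in WT GV and 0, 38.7 and 75.8 in Nat10-ZcKO GV, and Plk1 at 282, 311 and 291 against 70.8, 135 and 235. For both genes each Nat10-ZcKO library was below each WT library, as for 12.8% of all genes tested. The lower pair of values in each case came from the 2 libraries with few oocyte markers. Against the 3 WT libraries, Nat10-ZcKO GV replicate 3 alone, assumed to vary like them, gave −0.80 ± 0.44 for Wee2 (edgeR adjusted p = 0.405), −0.14 ± 0.35 for Plk1 (edgeR adjusted p = 0.915) and 1.07 ± 0.38 for Cdc25b (edgeR adjusted p = 0.152; 2.01% of 3879 genes were called).

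In MII, none of the 7 genes tested over the 5 libraries differed between genotypes (edgeR, changes of 0.04 to 2.12, all adjusted p = 0.997; 0.191% of 2097 genes were called). These changes rest on WT MII replicate 1, since replicate 2 held 1 count on the 10 genes: without replicate 1 the changes of the 7 genes came to 4.94 or more. Without replicate 2, replicate 1 at 1283 CPM of Mos, 460 of Ccnb1, 690 of Wee2 and 193 of Fbxo43 lay within the Nat10-ZcKO MII ranges of 545 to 1346, 320 to 751, 525 to 1048 and 119 to 207. It lay below them for Ccnb2 (14.8 against 47.7 to 90.4), Ccna2 (126 against 138 to 198) and Plk1 (89.0 against 138 to 223), and above them for Cdk1 (74.2 against 6.82 to 12.5). A lone library often falls outside the range of a few others, and the share of all genes that did so was not taken. These positions therefore do not set the genes apart. None of the 8 genes then tested was called (edgeR, all adjusted p = 0.999; 0.205% of 2924 genes were called). The change was 0.21 ± 0.49 for Ccnb1, −0.43 ± 0.47 for Mos, 2.08 ± 1.29 for Ccnb2 and −2.87 ± 1.96 for Cdk1, and with 1 WT library the SEs of the last 2 do not set these changes apart from none.

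The stage change was also taken within each genotype, from a fit of the 4 groups chosen after the data were seen. Each genotype then rests on a lone library at one stage over the 8 libraries, WT at MII and Nat10-ZcKO at GV, which is assumed to vary like the other groups. In that fit Mos rose by 5.52 ± 0.49 in WT and 5.72 ± 0.73 in Nat10-ZcKO, Ccnb1 by 3.54 ± 0.56 and 4.57 ± 0.77, Fbxo43 by 2.74 ± 0.63 and 4.13 ± 0.89, Wee2 by 2.21 ± 0.43 and 3.18 ± 0.55, and Ccna2 by 2.16 ± 0.68 and 3.05 ± 0.80. Cdc25b changed by −3.77 ± 1.13 and −5.26 ± 0.75. Each of these passed the test in both genotypes in this fit alone (edgeR, highest adjusted p = 0.0165; 30.7% of 4029 genes were called in WT and 42.8% in Nat10-ZcKO). Plk1 passed it in WT (−1.70 ± 0.55, edgeR adjusted p = 0.0198) and not in Nat10-ZcKO (−0.81 ± 0.44, edgeR adjusted p = 0.130). Cdk1 did the reverse, at −1.05 ± 0.66 in WT (edgeR adjusted p = 0.217) and −4.13 ± 0.67 in Nat10-ZcKO (edgeR adjusted p = 1.12e-05).

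Over the 11 libraries none of the 9 genes passed within WT, where 2.02% of 3863 genes were called. Mos came nearest (4.75 ± 1.53, edgeR adjusted p = 0.0654), ahead of Cdc25b (−4.10 ± 1.54, edgeR adjusted p = 0.106) and Ccnb1 (2.64 ± 1.28, edgeR adjusted p = 0.201), and Ccna2 and Wee2 stood at 1.48 ± 1.10 and 1.33 ± 1.34. Within Nat10-ZcKO, where 8.49% were called, Mos (5.37 ± 1.56), Fbxo43 (4.98 ± 1.24), Ccnb1 (4.46 ± 1.33) and Wee2 (4.37 ± 1.41) rose and Cdc25b (−4.04 ± 1.13) and Cdk1 (−3.46 ± 1.09) fell (edgeR, highest adjusted p = 0.0316), and Ccna2 (0.94 ± 0.94, edgeR adjusted p = 0.509) did not pass.

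The difference of the stage change between genotypes was tested in its own right and was not called for any of the 9 genes (0.906% of 3863 genes over all libraries, and 0% of 4029 over the 8 by edgeR, where 263 had an unadjusted p under 0.05 and DESeq2 called 0). Ccnb2 had an unadjusted p of 0.0340 over the 11 libraries (3.63 ± 1.71, edgeR adjusted p = 0.806) and 0.0209 over the 8 (3.34 ± 1.38, edgeR adjusted p = 0.717), Cdk1 0.254 (−1.72 ± 1.51, edgeR adjusted p = 0.807) and 0.00343 (−3.08 ± 0.98, edgeR adjusted p = 0.511). Both rest on WT MII replicate 1, with 2 and 10 counts.

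**Figure D3:**
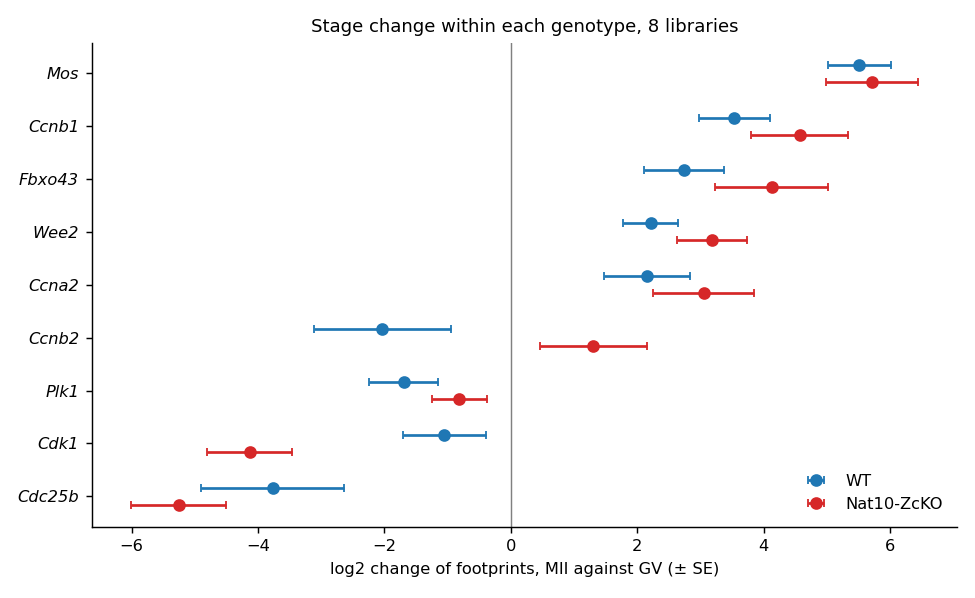
Log2 change of footprints in MII against GV (horizontal axis, ± SE) within WT (blue) and Nat10-ZcKO (red), from 1 fit of 8 libraries. The genotypes lie farthest apart for Cdk1 (−1.05 and −4.13) and Ccnb2 (−2.04 and 1.31), differences that did not pass the adjusted test.

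Around these genes, 45 others of the same circuit were read in 4 lists: partners, activators and inhibitors of Cdk1 (15 genes), the Greatwall kinase and the phosphatase PP2A-B55 that it restrains (9), the Mos-MAPK cascade (9), and the regulators of EMI2, Plk1 and Aurora A (12). Over all libraries 15 of the 45 were tested; 1 rose and 3 fell, with a median change of −0.01 beside −0.48 over all genes, of which 12.6% rose and 20.9% fell. Tpx2, which activates Aurora A on the spindle, rose by 2.05 ± 0.83 (edgeR adjusted p = 0.0442). Mapk3 (ERK1), the MAP kinase below Mos, changed by −3.35 ± 0.80 (edgeR adjusted p = 0.000849), Ccnf, cyclin F, an F-box protein, by −2.34 ± 0.80 (edgeR adjusted p = 0.0170), and Btrc, the F-box protein that recognises phosphorylated EMI2 and WEE1 kinases, by −2.11 ± 0.77 (edgeR adjusted p = 0.0246).

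Over the 8 libraries 5 of 15 rose and 4 fell, shares near the 30.4% and 33.9% of all genes tested. The additional calls included Map2k1 (MEK1, 2.55 ± 0.39), Cdkn1b (the Cdk inhibitor p27, 2.41 ± 0.56), Mastl (Greatwall, 1.78 ± 0.45) and Arpp19 (a Greatwall substrate that inhibits PP2A-B55, −1.34 ± 0.43). By list this was 1 up and 1 down of 2 tested for the Cdk1 partners, 1 and 1 of 4 for Greatwall and 1 and 1 of 5 for the EMI2 and Aurora A axis. Within the MAPK cascade Map2k1 and Mapk3 parted: Map2k1 went from 46.9 to 137 CPM in these GV libraries to 357 to 682 in MII, and Mapk3 from 141 to 229 to 6.26 to 22.2. Ppp2r1a, the scaffold subunit of PP2A and the most footprinted gene of its list in WT GV, did not pass (0.38 ± 0.29, edgeR adjusted p = 0.245). None of the 45 was called between genotypes or in the interaction in either set of libraries.

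The genes whose footprints followed Ccnb1 most closely over the 10 libraries other than WT MII replicate 2 (Pearson r of log2(CPM + 10), genes with at least 100 counts) were Cnot8 (r = 0.991), Msh6 (0.977), Prc1 (0.969), Clk1 (0.969) and Susd3 (0.966). These points share library and depth and fall into 2 stages, so r mainly reads the stage change. Of the listed genes, Mos (0.921), Fbxo43 (0.873) and Wee2 (0.765) followed it, Ccna2 less so (0.594), and Plk1 (−0.382), Cdk1 (−0.728) and Cdc25b (−0.943) ran against it.

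The annotated CPE was read beside these changes. Over all libraries 69.0% of 377 genes that rose in MII and 16.4% of 621 that fell held one near a polyadenylation signal, against 42.2% of all 2977 tested. Over the 8 libraries it was 64.1% of 939 genes that rose, 19.9% of 1043 that fell, 46.5% of 1097 not called and 42.9% of 3079 tested. There the median 3′UTR was 1164 nt in genes that rose, 1045 nt in those not called and 586 nt in those that fell. In the last 100 nt alone the shares were 39.4% of genes that rose, 9.78% of those that fell and 23.8% of those tested. Of the 5 listed genes that rose, Ccnb1, Wee2, Fbxo43 and Ccna2 held one and Mos, with a 3′UTR annotated at 126 nt, did not. Of the 3 that fell, Cdk1 did, in a 3′UTR of 3352 nt, and Cdc25b and Plk1 did not. Only the exact motifs given above were searched for, so an element of other letters, in Mos or elsewhere, would be missed. In the last 100 nt of the annotated 3′UTR, Wee2 alone of these rising and falling genes held an element.

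The acRIP-seq libraries held mRNA fragments pulled down from WT GV oocytes. With 1 library each there is no replicate check, and the anti-IgG library is small (116232 counts on genes against 970997), so ratios of CPM are given with exact 95% intervals that cover counting error only. Wee2 had 489 anti-ac4C and 23 anti-IgG counts, a ratio of 2.55 (1.68 to 4.05), and Fbxo43 136 and 8, a ratio of 2.03 (1.004 to 4.81). These 2 were past 2-fold, as were 53.3% of the 11883 genes with a count. A gene with no anti-IgG count was counted as past 2-fold, so this share includes genes without a measured ratio. Among 8752 genes with at least 10 counts over both libraries it was 43.9%, counted in the same way. The share among genes with an anti-IgG count was not taken, so a ratio of 2 is not read as setting a gene apart. None of the 10 had a lower bound above 2, against 3.69% of genes.

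Of the other genes, Ccna2 stood at 1.59 (0.839 to 3.40) and Cdk1 at 1.32 (0.729 to 2.61). The interval lay wholly under 1 for Cdc25b at 0.419 (0.277 to 0.651), Ccnb1 0.430 (0.317 to 0.593), Mos 0.465 (0.374 to 0.582), Ccnb2 0.532 (0.316 to 0.943) and Plk1 0.708 (0.533 to 0.954). The share of all genes with such an interval was not taken, so it does not set these genes apart. For comparison, genes with 50 counts or more over both libraries had a median of 1.27. Genes that rose in MII thus stood on both sides of it, Wee2 and Fbxo43 above and Mos and Ccnb1 below. Of the 45 circuit genes, 24 were counted as past 2-fold, but several of these had no anti-IgG count and so no measured ratio. Map2k1 at 6.70 (2.58 to 24.8) and Mapk3 at 4.09 (2.04 to 9.56) had a lower bound above 2. The first of these rose in MII and the second fell.

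**Figure D4:**
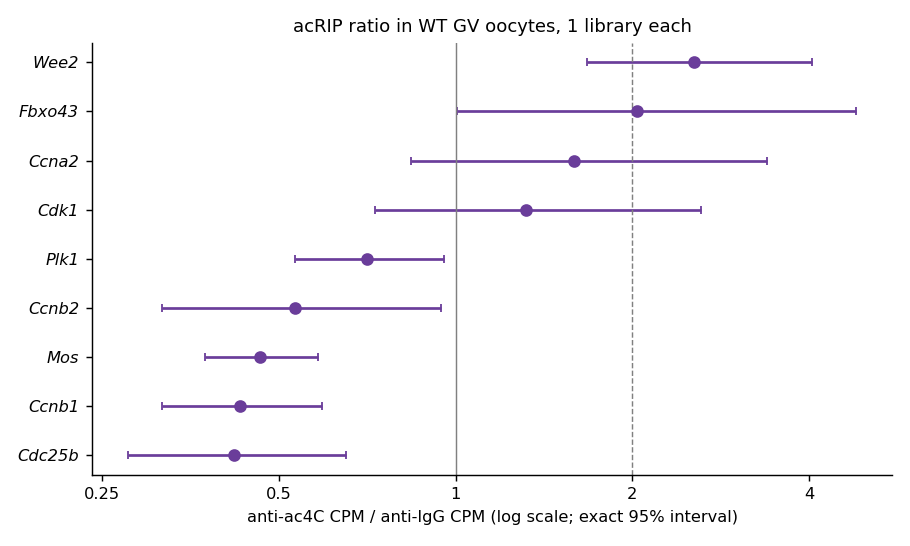
Ratio of anti-ac4C to anti-IgG CPM (horizontal axis, log scale) for 9 genes in WT GV oocytes with exact 95% intervals; lines mark 1 (solid) and 2 (dashed). Wee2 and Fbxo43 lie past 2, and the intervals of Cdc25b, Ccnb1, Mos, Ccnb2 and Plk1 lie under 1.

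The anti-IgG library, taken as a reading of the RNA present, was set against the footprints of the same stage, a comparison chosen after the data were seen. That library is a control pull-down and not an input library, and whether its fragments follow RNA amounts was not tested. Mos stood high in it, at 903 CPM the 98th gene, while its WT GV footprints were 20.6, 39.4 and 10.4 CPM. Its footprints per RNA fragment, 0.0260, stood at percentile 4.94 of 4314 genes with at least 50 acRIP-seq counts, whose median was 0.449. Ccnb1 came next, at 0.0823 and percentile 12.6. At the other end was Cdk1, at 1.60 and percentile 82.7. Wee2 (0.743), Plk1 (0.601), Cdc25b (0.430), Ccnb2 (0.429), Fbxo43 (0.389) and Ccna2 (0.313) lay nearer the median.

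Against the anti-ac4C library the order at both ends was kept for Mos (percentile 8.41) and Cdk1 (86.8), whereas Ccnb1 moved to percentile 29.6. There Ccnb1 was level with Fbxo43, also at 29.6. RNA levels at MII were not analysed here, so the rise at MII cannot be split into RNA and ribosomes per RNA. The 2 assays also differ in poly(A) selection, fragment length and the part of the gene counted, and genes are not replicates, so this is a description of these libraries.

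**Figure D5:**
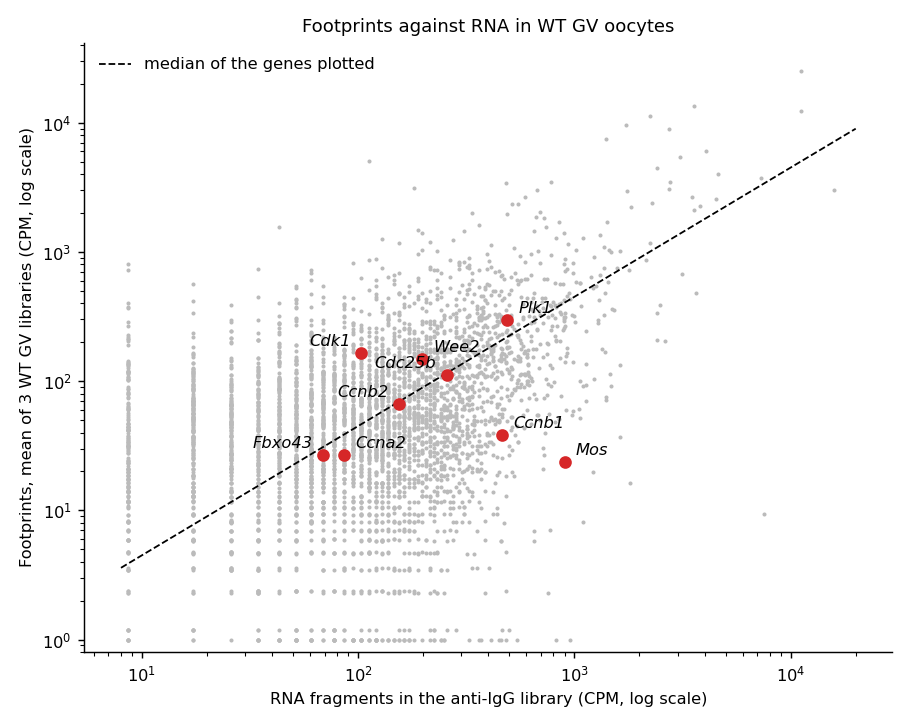
Mean footprint CPM of the 3 WT GV libraries (vertical axis, log scale) against anti-IgG CPM (horizontal axis, log scale) for 4314 genes in grey, with 9 of the listed genes in red and the median ratio of 0.449 as a dashed line; 103 genes with a mean under 1 CPM are drawn at 1. Mos, at 23.5 against 903 CPM, and Ccnb1, at 38.2 against 465, lie far under the line, and Cdk1, at 165 against 103, lies above it.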

How the data were processed

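Ribosome footprints were measured in 11 libraries and acRIP-seq fragments in 2. For both assays the authors deposited whole-number counts per gene, 1 library a file and without normalization; footprints were counted on coding sequences. The submitters' processing notes name cutadapt, STAR, HTSeq and mm10, without versions or order. Reads shared with pseudogene copies may have been dropped in that counting. Identifiers were matched to symbols for 22399 of 22442 genes. HTSeq summary rows of the acRIP-seq libraries (no feature, 17.1% of the anti-ac4C and 46.7% of the anti-IgG library) were left out.

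The main test was the quasi-likelihood F-test of edgeR 4.0.16 under R 4.3.3 (glmQLFit, glmQLFTest) after filterByExpr and TMM scaling, called at a Benjamini-Hochberg adjusted p under 0.05. The stage fit had genotype as a covariate and all 11 libraries; the genotype fits had the 6 GV or the 5 MII libraries; the interaction had 4 group means. SEs were obtained as the absolute log2 change over sqrt(F). DESeq2 1.42.0, library size scaling, no filter, leaving out each library or the 3 that stand apart, and a replicate block were alternatives. CPM, TPM, ratios and motif matches were computed in Python 3.11.15. Of these steps, only the edgeR fits of stage and of genotype within each stage were run on simulated data. Coordinates and 3′UTRs are from GENCODE M21 (GRCm38, the build that mm10 names).

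The 10 genes and all lists were chosen with earlier results of these data known. Named were the 10 genes, list members called in a comparison or most footprinted in WT GV, and the 5 genes most like Ccnb1; results for some list members are not reported here. Depth was 4815 to 279464 counts per Ribo-seq library. No 2 libraries of the same group agreed within sampling noise, and pairs across groups were not checked.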

Additional observations from a re-analysis of the deposited data

How the results depend on the processing

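Across the alternatives tried, the stage changes of Mos, Cdc25b and Fbxo43 kept their direction and stayed under an adjusted p of 0.05 in 18 of 18 settings, and those of Ccnb1, Cdk1 and Wee2 in 16, 17 and 14 of 18. Ccna2 passed in 5 of 18 and Plk1 in 3, each time with at least 1 of the libraries that stand apart left out. The sign of Ccnb2 did not hold: it ranged from −0.30 to 0.55 with 1 library left out and was 0.13 over 8 libraries with library size scaling. The genotype changes changed sign for Cdk1 in GV (0.11 over 4 libraries by edgeR, 0.11 by DESeq2; −0.47 to 0.30 with 1 library left out), Cdc25b in GV (−0.11 with the replicate block; −0.76 to 0.71), Mos in MII (−0.43, −0.35 with library size scaling and −0.41 by DESeq2 without WT MII replicate 2; −0.43 to 4.94) and Fbxo43 in MII (−0.24, −0.14 and −0.23; −0.24 to 7.53), and the interaction of Cdk1 ranged from −2.35 to 4.18. The upper ends are those without WT MII replicate 1, apart from the 2 GV changes. Wee2 in GV passed without Nat10-ZcKO GV replicate 3 (−2.94, edgeR adjusted p = 0.0444), which leaves only libraries that stand apart.

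Counts of called genes moved by more than 1.5 times. The stage count of 1004 (378 up, 626 down) was 1986 with DESeq2 (392 up, 1594 down), 264 with no filter, 296 with the replicate block, 1991 over 8 libraries (941 up, 1050 down), 1904 there with library size scaling (990 up, 914 down), 1910 there with DESeq2, and 315 (without WT MII replicate 1) to 1440 (without WT MII replicate 2) with 1 library left out. The GV genotype count of 0 became 15, 41 and 13 with DESeq2, no filter and the block, 25 in a fit of all 11 libraries, 78 without the libraries that stand apart (85 with library size scaling, 27 with DESeq2) and 0 to 385 with 1 library left out, the last without Nat10-ZcKO GV replicate 3. The MII count of 4 became 35, 0 and 0, 24 with library size scaling, 19 in the fit of all libraries, 2 with DESeq2 without WT MII replicate 2, and 0 to 1451, the last without WT MII replicate 1 (0 to 6 otherwise). The interaction count of 35 became 59, 10 and 8, 0 over 8 libraries by each of 3 methods, and 0 to 948, the last without WT MII replicate 1. Over the acRIP-seq genes, 6337 past 2-fold became 3844 with at least 10 counts and 439 by the lower bound. Equal replicate numbers did not pair the libraries (correlation of deviations −0.065 to 0.178), so calls lost with the block are not read as weaker effects; with it Wee2 had a stage change of 3.13 (edgeR adjusted p = 0.110). Which feature of the libraries moves these counts was not tested.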

Other observations

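The counts of Wee2 were set beside those of Cdc25b in the GV libraries, a comparison chosen after the values were seen. They were 21 to 11, 48 to 37 and 12 to 12 in WT, but 0 to 2, 2 to 5 and 21 to 57 in Nat10-ZcKO. Each Nat10-ZcKO library had fewer Wee2 than Cdc25b counts and no WT library did, although WT replicate 3 had equal counts. The share of all gene pairs that part in this way was not taken, so the order does not set the genotypes apart. The first 2 Nat10-ZcKO libraries are those with few oocyte markers, so the pattern rests on replicate 3, and no test was made of it.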
